A study of Homo sapiens with 8 samples.

Results

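The 8 genes described here encode histone variants that are made outside of S phase and whose messenger RNAs carry a poly(A) tail. They are H2AX, H2AZ1, H2AZ2, MACROH2A1, MACROH2A2, H3-3A, H3-3B and H1-10, taken from a list of names that no measured value entered, though with earlier results of these data known, and they are 8 of the 78932 genes in the deposited tables. Most histone messenger RNAs end in a stem-loop without a tail and are made while DNA is replicated. Variant genes are instead transcribed through the cell cycle, contain introns in many cases, and end at ordinary poly(A) sites. Their products replace the canonical histones at defined places: H2A.Z at promoters and enhancers, H3.3 in transcribed chromatin and at telomeres, H2AX throughout chromatin as the substrate of DNA damage kinases, and macroH2A in silent chromatin.

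RNA came from HCT116, a human colorectal cancer line, in which NUDT21 carries a degradation tag (dTAG). The 8 libraries form 2 groups of 4: cells given DMSO with JTE-607, and cells given dTAGV1 with JTE-607. The degrader dTAGV1 brings a tagged protein to a ubiquitin ligase, and DMSO serves as the vehicle. JTE-607 inhibits CPSF73, the nuclease that cuts pre-mRNA at poly(A) sites, and NUDT21 is the small subunit of cleavage factor Im, which binds UGUA upstream of those sites. Every group received JTE-607, so an effect of dTAGV1 without it was not measured. Doses, times, the number of clones behind the tagged line and whether replicates were separate cultures are not given in the sources used here, so p-values measure the spread between these libraries, which may be technical.

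Libraries held 3447842 to 4291256 reads on the sense strand of genes, and 12618 genes had enough counts to be tested, all 8 variant genes among them. Because the kit reads the 3′ end, a transcript gives about 1 read regardless of its length, and levels of different genes can be set side by side as CPM, the counts per 1000000 after TMM scaling. NUDT21, the targeted gene, had 104 to 139 counts in the DMSO libraries and 15 to 43 in the dTAGV1 libraries (log2 fold change -1.95, adjusted p = 1.36e-09 by Benjamini-Hochberg in edgeR's quasi-likelihood test). Its protein was not measured. Uniquely mapped reads that fell on no gene made up 30.07% to 33.65% in the DMSO libraries and 35.85% to 37.36% in the dTAGV1 libraries, without overlap, and the part of this difference in the results was not tested. Of 8 colon epithelial markers, 6 were tested, with a summed level of 1680 to 1970 CPM with DMSO and 1350 to 1460 CPM with dTAGV1 (3 lower, 1 higher); the part of this shift in the results was not tested. The intestinal marker VIL1 had at most 3 counts and CDX1 had 0 in every library, which allows up to 3 counts. Summed markers of blood cells stayed at or below 2.83 CPM and those of endothelium at or below 3.20 CPM. The fibroblast markers, with COL3A1 and DCN at 0, summed to 15.9 to 20.8 CPM with DMSO and 11.2 to 15.9 CPM with dTAGV1. Most of this sum was COL1A1, with means of 17.3 CPM with DMSO and 13.8 CPM with dTAGV1.

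Annotated 3′ ends are shown first, as 30-base stretches of GENCODE 29 transcripts written as DNA, 5′ to 3′. The poly(A) signal (AATAAA or ATTAAA) is in capitals. Ends are shown for the genes that changed, except MACROH2A1, and for H1-10, because the kit reads the 3′ end. Which annotated end gave the reads cannot be told from counts per gene.
H2AX: tggactaattttATTAAAggattgtttttt
H2AZ1: gtggataagttcAATAAAggtcatatccca
H2AZ2, distal end: ttatatgatggaATTAAAtatattctgtgt
H3-3B, distal end: ggatgagactaaAATAAAatttttgaagtt
H3-3B, proximal end: gggtccttttgcAATAAAactggttatgac
H1-10: ttttttgggcacAATAAAgcgtttaaacct
The signal began 20 bases before the annotated end in H2AZ1 and at the distal end of H3-3B, 22 bases before it in H1-10 and at the proximal end of H3-3B, 23 in H2AZ2 and 45 in H2AX. None of the 5 annotated ends of MACROH2A1 had either signal in its last 50 bases. The annotated ends of H2AZ2 and H3-3B that are not printed lacked both signals in that window too, as did some ends of H3-3A. Among 18879 coding genes, taking the longest transcript of each that holds a consensus coding sequence (CCDS), 75.9% had one there. TGTA, the DNA form of the motif bound by cleavage factor Im, occurred 3 times in the last 100 bases of the longest CCDS transcript of H2AZ2 and 1 time each in H2AZ1 and H3-3A. It did not occur in that window of H2AX, H3-3B, H1-10, MACROH2A1 or MACROH2A2. In the same window 52.0% of coding genes had it. The number depended on the annotated end. The proximal end of H3-3B printed above had TGTA 2 times in its last 100 bases, and the other H3-3B ends 0 or 1 time. Of the 5 ends of MACROH2A1, some had it 1 time and others 0 times. The H2AZ2 ends other than the distal one had it 0 to 2 times, as did the ends of H3-3A.

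H2AX was the only one of the 8 variant genes in which a search found the histone stem-loop, which it holds as well as a poly(A) site. The search was for a 6-base stem that begins with GG, a loop of 4 bases that begins with TTT, and the reverse complement of the stem. The match is printed with the stem and loop in capitals, because it is the alternative 3′ end of this gene, whose tail-less product a poly(A)-primed library does not sample.
H2AX stem-loop: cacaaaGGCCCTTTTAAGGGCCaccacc
It begins at base 555 of a transcript of 1614 bases, and 1044 bases lie between it and the annotated poly(A) end. Such a match was found in 0.265% of the coding genes (50 of 18879), in 25 of 64 replication-dependent histone genes, and in H2AX alone among the 8 variant genes. The pattern allows no mismatch in the stem, and only the longest CCDS transcript of a gene was searched. A gene without a match may therefore still hold a stem-loop.

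Of the 8 variant genes, 5 were lower upon dTAGV1 and 0 were higher (edgeR's quasi-likelihood test at a Benjamini-Hochberg threshold of 0.05). They were H2AX, H2AZ1, H2AZ2, MACROH2A1 and H3-3B. Over all tested genes 57.9% were called in either direction, 28.5% as lower and 29.4% as higher. The share of variant genes called at all, 5 of 8, is thus near that of all genes, while each of the calls was a fall. Their median log2 fold change was -0.60, and that of all tested genes was 0.01. Summed over the 8 genes, the level was 2543 to 2901 CPM in the DMSO libraries and 1590 to 1788 CPM in the dTAGV1 libraries. The groups did not overlap in CPM for these 5 genes, nor for H3-3A, which was higher; among all tested genes 50.9% did not overlap, and 25.1% did not with dTAGV1 lower. In bulk RNA, fewer cells that express a gene and less RNA per cell cannot be told apart.

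**Figure D1:**
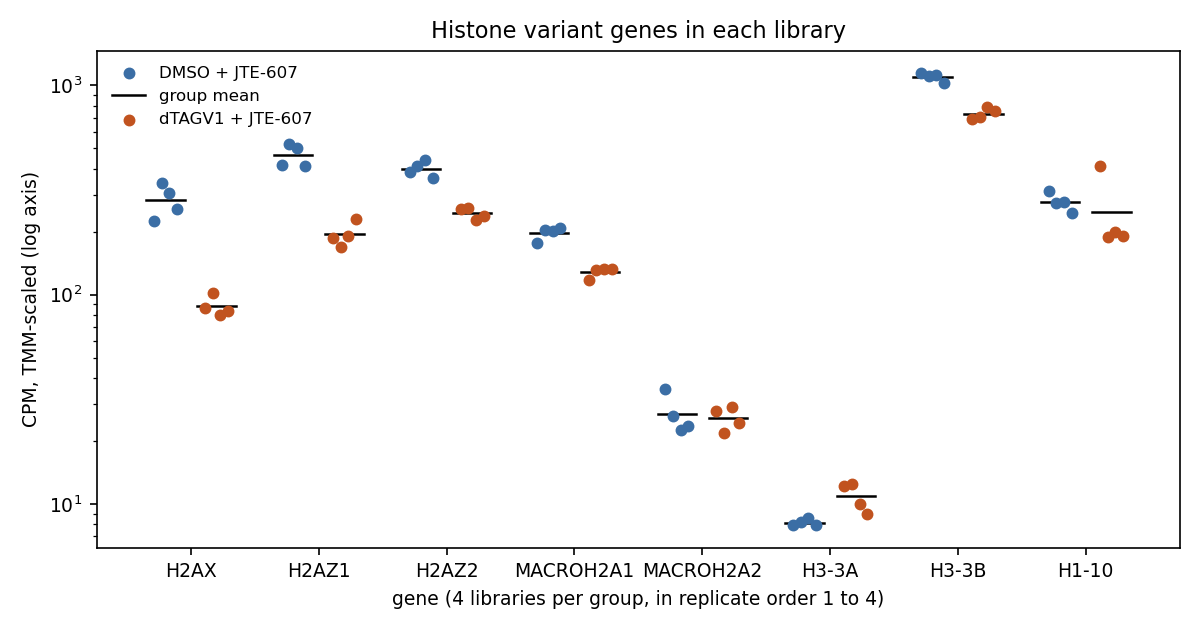
Level of each histone variant gene in every library, as TMM-scaled CPM on a log axis; points are libraries in replicate order and bars are group means of 4 libraries. The dTAGV1 libraries lie below all DMSO libraries for H2AX, H2AZ1, H2AZ2, MACROH2A1 and H3-3B, and 1 dTAGV1 library of H1-10 stands at 414.4 CPM.

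H2AX, the H2A variant whose phosphorylated form marks DNA double-strand breaks, changed most (ENSG00000188486; GRCh38 chromosome 11, 119093854 to 119095467, minus strand). Its level was 226.3, 342.5, 307.4 and 257.9 CPM in DMSO replicates 1 to 4, and 86.2, 102.4, 79.8 and 83.5 CPM in dTAGV1 replicates 1 to 4. Every dTAGV1 library was lower than the lowest DMSO library, and the DMSO libraries spread more widely. The mean fell from 283.5 ± 51.6 to 88.0 ± 9.97 CPM (SD, n = 4 each), which on the log2 scale was -1.69 ± 0.12 (SE; edgeR, adjusted p = 3.66e-09 by Benjamini-Hochberg). This places H2AX at percentile 2.54 of the log2 fold changes of all tested genes. DPAGT1, which lies 1035 bases upstream on the same strand, had a log2 fold change of -0.01 (edgeR, adjusted p = 0.963 by Benjamini-Hochberg). Reads on the opposite strand of H2AX numbered 0 to 9 per library.

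H2AZ1 and H2AZ2 encode the H2A.Z proteins, which differ at a few residues. H2AZ1 (ENSG00000164032; chromosome 4, 99948086 to 99950388, minus strand) stood at 418.9, 524.1, 502.9 and 411.0 CPM with DMSO and at 186.5, 169.5, 190.0 and 230.4 CPM with dTAGV1. All 4 dTAGV1 libraries lay below the DMSO range. On the log2 scale the change was -1.26 ± 0.09 (SE; edgeR, adjusted p = 4.14e-10 by Benjamini-Hochberg). H2AZ2 (ENSG00000105968; chromosome 7, 44826791 to 44848083, minus strand) stood at 386.9, 413.6, 441.3 and 360.3 CPM with DMSO and at 256.2, 258.3, 227.1 and 237.2 CPM with dTAGV1. It too had no overlap between groups, but the fall was smaller: -0.71 ± 0.08 on the log2 scale (SE; edgeR, adjusted p = 1.40e-08 by Benjamini-Hochberg). DNAJB14 begins 1359 bases downstream of H2AZ1 on the same strand and had a log2 fold change of -0.46 (edgeR, adjusted p = 7.51e-05 by Benjamini-Hochberg).

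H3-3A and H3-3B encode the same H3.3 protein from 2 genes. H3-3B (ENSG00000132475; chromosome 17, 75776434 to 75785893, minus strand) was the most abundant variant gene in both groups. Its level was 1143, 1108, 1123 and 1028 CPM with DMSO and 688.2, 706.0, 788.0 and 755.6 CPM with dTAGV1, again without overlap. On the log2 scale the change was -0.58 ± 0.07 (SE; edgeR, adjusted p = 5.88e-08 by Benjamini-Hochberg). H3-3A (ENSG00000163041; chromosome 1, 226061851 to 226072001, plus strand) had only 29 to 34 counts in the DMSO libraries and 34 to 43 in the dTAGV1 libraries. Its level was 7.92, 8.20, 8.54 and 7.91 CPM with DMSO and 12.2, 12.4, 10.02 and 8.99 CPM with dTAGV1, so that the groups did not overlap but nearly touched. The log2 fold change was 0.41 with a 95% confidence interval of 0.01 to 0.82, and it did not pass the adjustment over all genes (edgeR, adjusted p = 0.0767 by Benjamini-Hochberg).

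H3-3A has many near-identical copies, and whether they lower its count was not tested. Stretches of 60 bases or more with at least 90% identity to 15 other genes covered 32.6% of its longest CCDS transcript, with H3P44 as the longest match (426 bases at 95.1%). None of them reached into the last 300 bases. For all 8 genes only annotated transcripts were searched, so a copy of the 3′ end outside the annotation would have been missed. In tables of this layout reads that fit more than 1 locus are not counted to any gene, so reads from the matched stretch would be missing, and the size of that loss was not tested. H3-3B had 39.2% of its transcript matched by 1 gene, the retrogene H3-5, also outside the last 300 bases, and H3-5 itself had at most 6 counts in a library. H2AZ1 had 39.5% of its transcript matched by 2 genes and H2AZ2 had 14.8% matched by 5, in both cases outside the last 300 bases. Whether these matches affect their counts or their ratio was not tested. H2AX, H1-10, MACROH2A1 and MACROH2A2 had no such match. The 55 annotated H3 and H2A.Z pseudogenes in the tables (those named H3P, H2AZP or H2AZ2P) together held 8 to 30 counts per library, and none had enough counts to be tested.

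MACROH2A1 and MACROH2A2 encode the large H2A variants that carry a macrodomain. MACROH2A1 (ENSG00000113648; chromosome 5, 135333900 to 135399914, minus strand) stood at 177.1, 203.5, 202.5 and 208.2 CPM with DMSO and at 117.1, 131.4, 132.6 and 132.9 CPM with dTAGV1. The dTAGV1 libraries were all lower, with a log2 change of -0.62 ± 0.08 (SE; edgeR, adjusted p = 2.00e-07 by Benjamini-Hochberg). Its splice forms cannot be separated in counts per gene. MACROH2A2 (ENSG00000099284; chromosome 10, 70052796 to 70112280, plus strand) was less abundant, at 35.5, 26.3, 22.7 and 23.5 CPM with DMSO and 27.8, 21.8, 29.2 and 24.4 CPM with dTAGV1. The groups overlapped, and the log2 fold change was -0.06 with a 95% confidence interval of -0.37 to 0.24 (edgeR, adjusted p = 0.730 by Benjamini-Hochberg). Without DMSO replicate 1, which had the highest level, the value was 0.08. MACROH2A2 overlaps AIFM2 on the other strand, and its opposite-strand counts were 6 to 17 per library beside 72 to 130 sense counts.

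H1-10 encodes a linker histone that is expressed outside of S phase (ENSG00000184897; chromosome 3, 129314771 to 129316277, minus strand). Its level was 312.6, 274.9, 277.2 and 246.5 CPM with DMSO and 414.4, 188.5, 199.4 and 191.6 CPM with dTAGV1. In the dTAGV1 group, 3 libraries lay below every DMSO library and replicate 1 lay above every DMSO library. With all 8 libraries the log2 fold change was -0.16 with a 95% confidence interval of -0.86 to 0.54 (edgeR, adjusted p = 0.666 by Benjamini-Hochberg). Without dTAGV1 replicate 1 it was -0.53 ± 0.08 (SE; edgeR, adjusted p = 4.30e-06 by Benjamini-Hochberg), and 6 of the 8 variant genes were then called lower against 28.6% of all genes. The 3 other dTAGV1 libraries had 193.2 ± 5.64 CPM (SD, n = 3), and replicate 1 was 2.15 times their mean. The call for this gene therefore rests on 1 library.

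**Figure D2:**
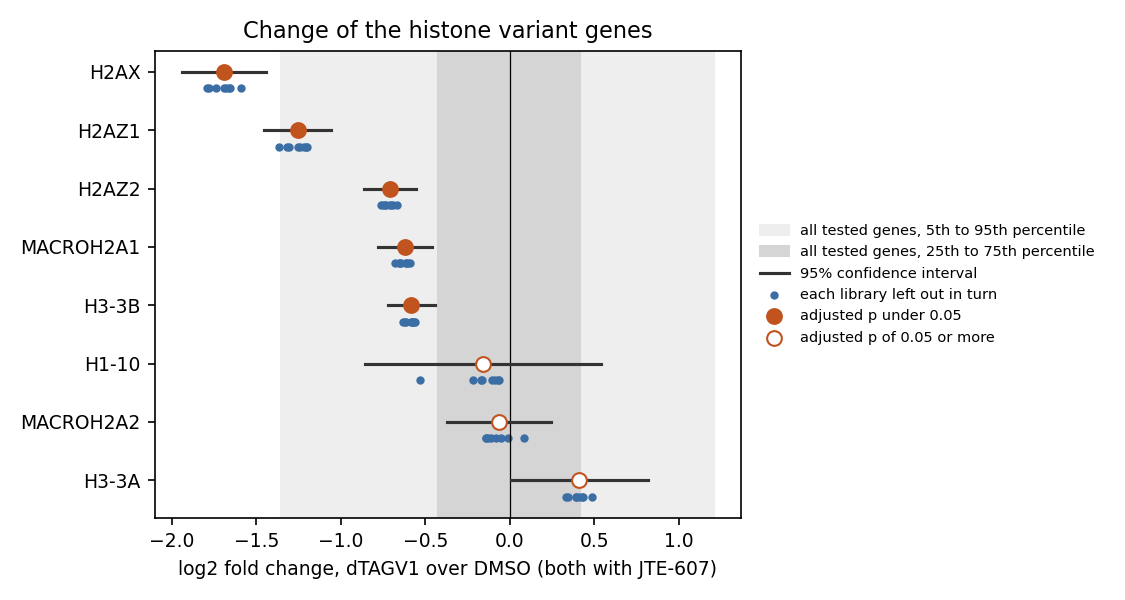
Log2 fold change of each variant gene upon dTAGV1 with its 95% confidence interval; filled points passed an adjusted p of 0.05, small points leave out 1 library each, and grey bands give the spread of all tested genes. The small points keep to the side of the full fit except for MACROH2A2, and H1-10 has 1 at -0.53 against -0.16 in the full fit.

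Among the variant genes the order of the levels differed between the groups. With DMSO it was H3-3B, H2AZ1, H2AZ2, H2AX, H1-10, MACROH2A1, MACROH2A2 and H3-3A. The ranges of H2AZ1 and H2AZ2 overlapped there, as did those of H2AX and H1-10. With dTAGV1 the order was H3-3B, H1-10, H2AZ2, H2AZ1, MACROH2A1, H2AX, MACROH2A2 and H3-3A, where the ranges of H1-10 and H2AZ2 overlapped, as did those of H2AZ2 and H2AZ1 and those of H1-10 and H2AZ1. The second place of H1-10 rests on dTAGV1 replicate 1: without it the mean of H1-10 was 193.2 CPM, below the 244.7 CPM of H2AZ2 and beside the 194.1 CPM of H2AZ1. H2AX moved from above MACROH2A1 in every DMSO library to below it in every dTAGV1 library.

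Whether paralogs changed to a different extent was tested within libraries, from the log2 ratio of their counts, which needs no scaling between libraries. H2AZ1 made up 52.0%, 55.9%, 53.3% and 53.3% of the counts of the H2A.Z pair with DMSO and 42.1%, 39.6%, 45.6% and 49.3% with dTAGV1. H2AZ1 thus exceeded H2AZ2 in all 4 DMSO libraries and was below it in all 4 dTAGV1 libraries. The log2 ratio was lower by 0.55 with dTAGV1, from 0.21 ± 0.10 to -0.34 ± 0.25 (SD, n = 4 each; difference -0.55, 2-sided exact permutation test p = 0.0286, adjusted p = 0.0429 over 3 pairs). The smallest p that 4 against 4 libraries allow is 0.0286. Leaving out any 1 DMSO library raised the adjusted p of this exact permutation test to between 0.0571 and 0.0857, with differences of -0.58 to -0.51. The groups still did not overlap. With groups of unequal size another assignment of the libraries can differ as much, so this rise does not show dependence on 1 library.

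For H3.3, H3-3B had 130 to 144 times the counts of H3-3A with DMSO and 56.5 to 84.1 times with dTAGV1. The log2 ratio of H3-3A over H3-3B was higher by 0.99 with dTAGV1 (exact permutation test p = 0.0286, adjusted p = 0.0429 over 3 pairs), and the groups did not overlap. It was not called without DMSO replicate 2, 3 or 4, where the difference was 0.987, 1.0005 and 1.0065 (exact permutation test, adjusted p = 0.0857 in each). The groups did not overlap there either, and the limit of unequal group sizes given for the H2A.Z pair applies. MACROH2A1 made up 83.3% to 89.9% of the macroH2A counts with DMSO and 80.8% to 85.8% with dTAGV1, which overlapped. Its log2 ratio over MACROH2A2 differed by -0.57 (exact permutation test p = 0.0857, adjusted p = 0.0857 over 3 pairs). Without DMSO replicate 1, the library with the lowest ratio in its group, the difference was -0.76 and passed (exact permutation test, adjusted p = 0.0429).

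**Figure D3:**
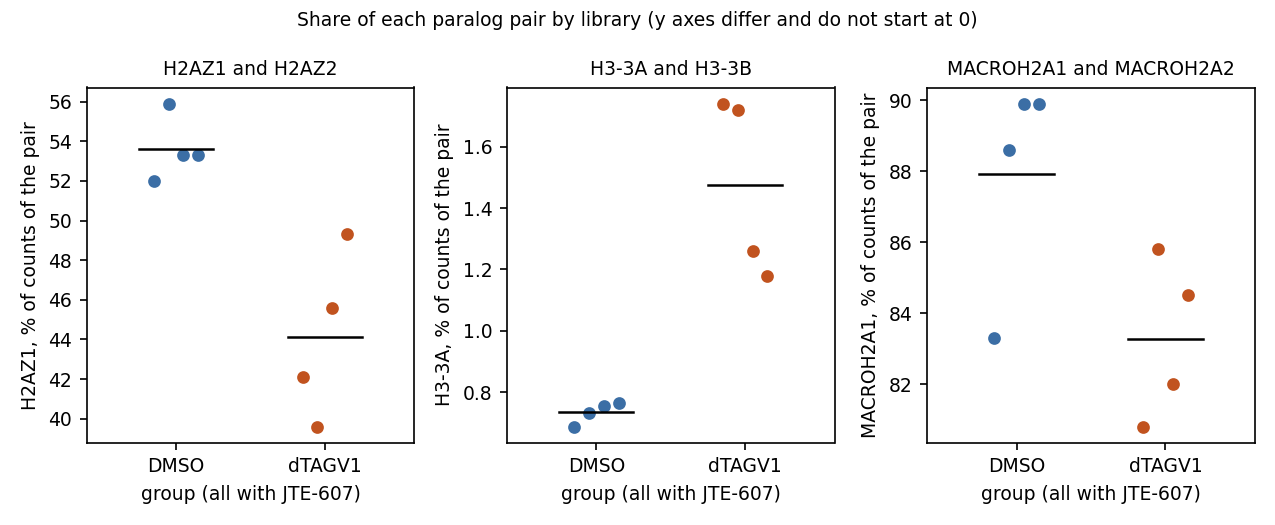
Share of the first gene in the counts of each paralog pair, in percent, for 4 DMSO and 4 dTAGV1 libraries in replicate order; bars are group means and the y axes differ. The groups do not overlap for H2AZ1 and H3-3A, and for MACROH2A1 they do.

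The promoters of the variant genes were searched for the CCAAT box, the TATA box (TATAAA) and TTTGAA, an element found in many genes of late cell cycle phases, on both strands of the 250 bases before each RefSeq start (GRCh38.p14). The motifs were chosen with the sequences in view. H2AX had 4 CCAAT matches, H2AZ1 had 3, H2AZ2 had 4 and H3-3B had 4. H1-10 and MACROH2A2 had 0, the 4 starts of H3-3A had 0 or 1, and the 2 starts of MACROH2A1 had 0 and 2. At least 3 matches occurred in 2.93% of 35116 promoters, and at least 1 in 32.0%. TATAAA lay 31 bases before the start in H2AX, H2AZ1 and H1-10 and 29 bases before it in H3-3B, against 10.7% of all promoters with a match anywhere in the window. TTTGAA was found in H2AX only, 164 bases before the start on the other strand, and in 13.3% of all promoters. The H2AX and H2AZ2 windows are printed because these genes fell with different sizes (log2 fold changes of -1.69 and -0.71) and carry the same number of CCAAT boxes. Capitals mark the matches, and a match is not evidence of binding.
H2AX, chr11:119095466-119095715, minus strand: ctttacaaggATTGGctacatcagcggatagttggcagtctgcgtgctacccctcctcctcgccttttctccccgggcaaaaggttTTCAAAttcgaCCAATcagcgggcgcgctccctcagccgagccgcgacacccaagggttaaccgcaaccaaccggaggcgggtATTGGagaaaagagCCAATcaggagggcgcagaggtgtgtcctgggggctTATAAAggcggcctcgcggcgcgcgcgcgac
H2AZ2, chr7:44848088-44848337, minus strand: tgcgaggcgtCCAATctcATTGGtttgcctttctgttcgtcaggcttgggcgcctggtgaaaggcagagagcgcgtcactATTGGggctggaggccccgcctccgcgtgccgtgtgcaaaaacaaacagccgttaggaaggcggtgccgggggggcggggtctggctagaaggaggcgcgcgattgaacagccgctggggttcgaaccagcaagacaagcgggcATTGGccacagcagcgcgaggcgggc

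By likeness over the 8 libraries, measured as the root mean square distance between mean-centred log2 CPM profiles, the genes nearest to the 3 variant genes with the largest changes were as follows. The distances are a description without a test, and 9247 genes with at least 10 CPM were compared. FANCD2, a Fanconi anaemia gene of DNA crosslink repair, was nearest to H2AX (0.09), followed by DPF1 (0.12), a BAF complex subunit, and ERCC6L (0.13), a helicase of mitotic chromosomes. DUT, the dUTPase, was nearest to H2AZ1 (0.07), followed by RHOBTB3 (0.07) and CDC6 (0.08), which licenses replication origins. TATDN2 was nearest to H2AZ2 (0.07), followed by INTS11 (0.07), the nuclease subunit of Integrator, and STRAP (0.07). Between these variant genes themselves the distance was 0.29 for H2AX and H2AZ1, 0.32 for H2AZ1 and H2AZ2 and 0.50 for H2AX and H2AZ2. A small distance can come from a similar size of change between the groups. The log2 fold changes were -1.69 for FANCD2 and H2AX, -1.25 for DUT and -1.26 for H2AZ1, and -0.80 for TATDN2 and -0.71 for H2AZ2. Shared regulation was not tested.

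Other variant histone genes were taken from a list of 8, of which 3 had enough counts to be tested, with 2 lower and 0 higher. CENPA, the centromeric H3 variant, fell. It went from a mean of 26.3 to 9.44 CPM (n = 4 each; log2 fold change -1.46 ± 0.24, SE, edgeR, adjusted p = 4.13e-05 by Benjamini-Hochberg). H2AJ, an H2A variant, had a log2 fold change of 0.41 (edgeR, adjusted p = 0.189 by Benjamini-Hochberg). Of 68 replication-dependent histone genes, 20 were tested, with 5 higher, 5 lower and a median log2 fold change of -0.10; these shares are near those of all tested genes, 29.4% higher and 28.5% lower. They ran from H2BC21 (-1.10) through H1-4 (-0.80), H2AC20 (-0.79), H4C3 (-0.74) and H3C10 (-0.59), which fell too, to H2AC6 (0.19), H2AC15 (1.23), H4C11 (1.53), H2BC5 (1.35) and H2BC4 (2.10), which rose. A poly(A)-primed library does not sample the tail-less transcripts of these genes, so the values do not give the level of their main products. H4C11 (1.26 CPM with DMSO, 3.62 CPM with dTAGV1) and H2AC15 (2.72 and 6.54 CPM) had low levels. Many of these genes are close copies of one another, and the effect of this on their counts was not tested.

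Among factors that place the variants in chromatin, the shares called are read against 28.5% lower, 29.4% higher and 57.9% called in either direction over all tested genes. Of 21 tested genes for exchange of H2A.Z, 8 fell and 6 rose, with a median log2 fold change of -0.03. ANP32E, a chaperone that removes H2A.Z from nucleosomes, fell most, from 133.6 ± 9.58 to 30.6 ± 1.72 CPM (SD, n = 4 each; log2 fold change -2.12, edgeR, adjusted p = 4.59e-15 by Benjamini-Hochberg). EPC1, a subunit of the TIP60 complex, rose most (log2 fold change 0.85, edgeR, adjusted p = 4.75e-10 by Benjamini-Hochberg). Without dTAGV1 replicate 3, 6 of these genes fell and 3 rose. Of 6 tested factors for deposition of H3.3, UBN1, a subunit of the HIRA complex, fell (log2 fold change -0.39), and ATRX (0.37), the remodeller that works with DAXX, and the chaperone ASF1A (0.55) rose. HIRA itself had 1 to 8 counts and was not tested.

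Among 9 tested genes that write, read or erase H2AX phosphorylation, 3 fell and 2 rose, with a median of -0.09, and the share called was near the 57.9% of all tested genes. PRKDC, ATR and BAZ1B, which encode kinases acting on H2AX, had log2 fold changes of -0.43, -0.32 and -0.22. The kinase gene ATM (0.78) and PPM1D (0.92), a phosphatase of damage signalling, rose. Of 14 tested general histone chaperones, 7 fell and 4 rose, with a median of -0.17. HJURP, the chaperone of CENP-A, fell from 99.2 ± 25.9 to 25.9 ± 3.49 CPM (SD, n = 4 each; log2 fold change -1.93, edgeR, adjusted p = 6.83e-07 by Benjamini-Hochberg). NASP, which binds H3 and H4, had a log2 fold change of -1.14. The 2 larger subunits of chromatin assembly factor 1 went opposite ways: CHAF1A fell from 72.9 ± 12.6 to 35.4 ± 4.33 CPM and CHAF1B rose from 18.6 ± 0.972 to 62.6 ± 7.42 CPM (SD, n = 4 each). Their log2 fold changes were -1.04 and 1.75 (edgeR, adjusted p = 9.08e-08 and 6.24e-12 by Benjamini-Hochberg). The other 3 that rose were SPTY2D1, SUPT6H and NAP1L1, with log2 fold changes of 0.43, 0.40 and 0.16.

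**Figure D4:**
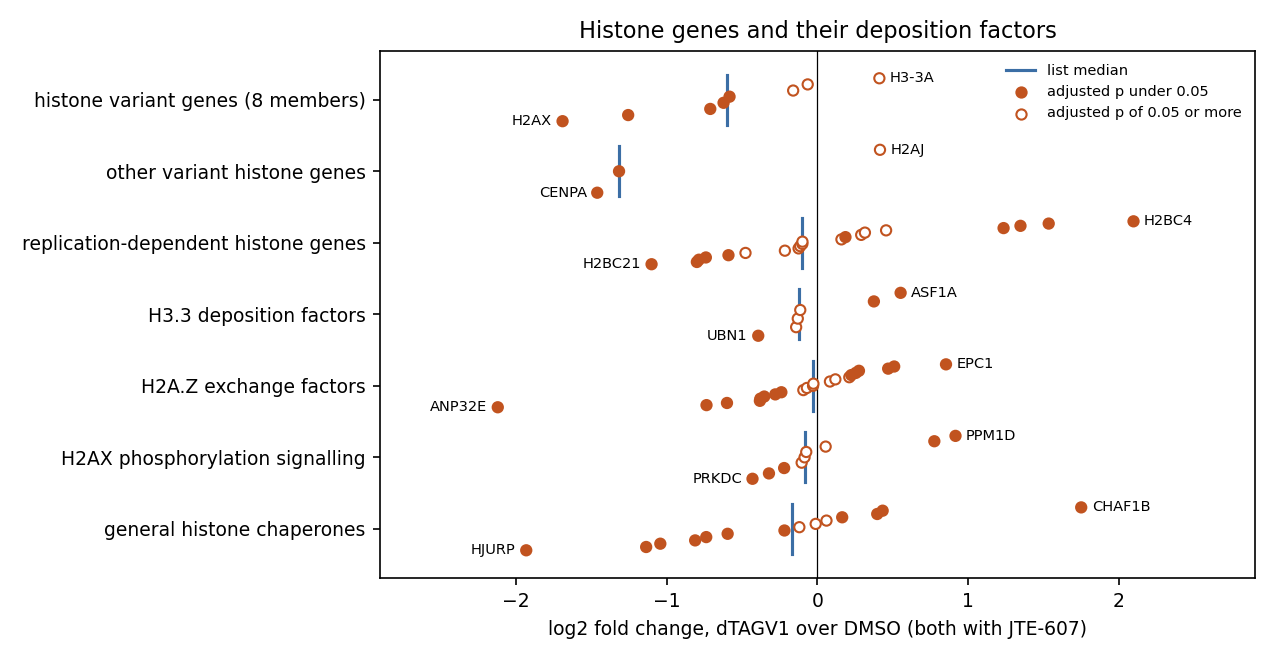
Log2 fold change of every tested gene in 7 lists, sorted within a list; filled points passed an adjusted p of 0.05, vertical ticks are list medians, and the ends of each list are named. The 8 variant genes reach from -1.69 (H2AX) to 0.41 (H3-3A), and the deposition and chaperone lists hold filled points on both sides of 0.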

How the data were processed

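Total RNA of 8 HCT116 samples was made into 3′ libraries with the Lexogen QuantSeq forward kit, per the labels' protocols. The authors deposited raw whole-number counts for each gene, laid out as STAR writes them; the submitters' processing notes name FastQC, fastp, STAR, HTSeq, DESeq2 and GRCh38, without roles. The annotation release, the trimming settings and whether molecular identifiers were used are not given in the sources used here. Counts on the gene's strand were used. The 4 totals of reads given to no gene, 56.7% to 62.8% of reads (27.65% to 28.87% unmapped with DMSO, 20.39% to 30.34% with dTAGV1), stayed out of library sizes and tests.

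Tests used edgeR 4.0.16 (filterByExpr, TMM, robust quasi-likelihood F test, Benjamini-Hochberg over 12618 genes, threshold 0.05); a standard error is the absolute log2 fold change over the square root of F. Positive values denote higher levels with dTAGV1. Paralog ratios used a pseudocount of 0.5 and 2-sided exact permutation tests. The edgeR step was tested on simulated data. Alternatives were DESeq2 1.42.0, limma-voom (limma 3.58.1), other scalings, filters and strand counts, a replicate term, and leaving out each library. Coordinates are those of GENCODE 29 (GRCh38), transcript sequences are from GENCODE 29, promoters from RefSeq (GRCh38.p14; all 8 genes matched), and copies were searched with blastn 2.17.0. Members and lists were chosen with earlier results of these data known.

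Genes named are the 8 members, NUDT21, neighbours and pseudogenes of members, the ends of each list, list genes that passed with an absolute log2 fold change of at least 1, and the 3 nearest profiles of the 3 members that changed most. ATRX, ATM, ATR, BAZ1B, SPTY2D1, SUPT6H, NAP1L1, H1-4, H2AC20, H4C3, H3C10, H2AC6, HIRA, H3-5 and AIFM2 were named after their values were seen. Values of some list genes and neighbours are not reported here. Libraries of 1 group differed by more than sampling noise (chi-square per degree of freedom 1.89 to 5.65), and all 8 were kept. Replicates are numbered 1 to 4 in both groups; deviations from group means correlated at 0.130, -0.0173, 0.0230 and 0.0338 for these numbers, which were therefore not taken to pair libraries.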

Additional observations from a re-analysis of the deposited data

Results flagged for a closer look

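H1-10 in dTAGV1 replicate 1 stood at 414.4 CPM, far from the 188.5 to 199.4 CPM of the other 3 dTAGV1 libraries (gap to the nearest library over the whole range 0.952). The raw counts were 1462 in that library and 624 to 810 in the others, with 0 on the opposite strand in all 8. Over the 4261 genes that averaged 50 CPM or more, H1-10 had the largest excess in that library over the highest of the other 3. At least 1.5 times that level was reached by 2 genes in replicate 1, 0 in replicates 2 and 3, and 3 in replicate 4. MACROH2A1 was low in the same library, at 117.1 CPM beside 131.4 to 132.9 CPM in the other 3 (gap over range 0.905), and it was called lower with and without it. Of 22 groups of 4 values examined, these 2 were far from their neighbours, where chance gives about 1 in 20.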

How the results depend on the processing

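Of 286 alternative values for 18 results, 270 had the same direction and the same call or, for a number of genes, differed by less than 1.5 times. H2AX, H2AZ1, H2AZ2, H3-3B and MACROH2A1 were called lower in every fit, with log2 fold changes of -1.79 to -1.59, -1.37 to -1.20, -0.79 to -0.67, -0.68 to -0.56 and -0.70 to -0.59. Leaving out each library in turn, H1-10 ran from -0.532 to -0.0676, MACROH2A2 from -0.143 to 0.0848 (0.0848 without DMSO replicate 1), the ratio of H2AZ1 over H2AZ2 from -0.65 to -0.46, that of H3-3A over H3-3B from 0.90 to 1.09, that of MACROH2A1 over MACROH2A2 from -0.76 to -0.48, and the number of H2A.Z exchange genes called from 9 to 14. With a replicate block, paired exact permutation tests left these first 2 ratios at -0.55 and 0.99 but gave an adjusted p of 0.125, the smallest that 4 pairs allow; the block changed no call of a variant gene, and 7434 genes were called with it. With a mean of at least 100 counts, fewer genes were tested, and 4120 of 6369 were called (64.7%, against 57.9% in the main fit). Of the replication-dependent histone genes 4 of 6 tested were called, and of the other variant genes 1 of 1. H3-3A and MACROH2A2 were not tested there. Library-size scaling called 3186 genes higher and 4089 lower, against 3710 and 3592, and moved the median of all genes to -0.06. H3-3A rests on 29 to 43 counts per library.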
